A study of Homo sapiens with 4 samples.

Results

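The genes described here are 9 genes of MHC class I antigen presentation, HLA-B, HLA-C, HLA-E, HLA-F, B2M, TAP1, TAP2, TAPBP and ERAP1, chosen by name from 26336 genes in the deposited table. All 9 had a row, and all 9 passed the filter on low values (a mean of at least 1 over the libraries), which left 22486 genes for testing. The cells were MDA-MB-231, an established line from a human triple-negative breast cancer, labelled as wild type in both groups. One group of 2 libraries came from cells exposed for 24 h to W23-1006, named in the series title as an inhibitor of the RNA demethylase ALKBH5, and the other group of 2 libraries from cells exposed for the same time to the vehicle DMSO. The dose is not given in the sources used here. No label says that 2 libraries of a treatment stem from different cultures, so every p-value rests on a spread that may be technical alone.

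MHC class I molecules show peptides from inside the cell to CD8 T cells and to natural killer cells. A polymorphic heavy chain (HLA-B and HLA-C, and the less variable HLA-E and HLA-F) pairs with the light chain beta-2-microglobulin, made from B2M. Peptides enter the endoplasmic reticulum through the TAP1 and TAP2 transporter, ERAP1 trims them there, and tapasin (TAPBP) holds an empty class I molecule at the transporter until a peptide binds. Transcription of these genes is raised by interferon gamma through IRF1 and NLRC5, and tumour cells often carry class I at a low level. The comparison asks whether the inhibitor moves transcript levels of this pathway within a day. The mark that ALKBH5 removes, m6A, was not measured in these files.

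Promoters of the members were read from RefSeq, since class I genes are known for a shared promoter layout of a kB site, an interferon-stimulated response element (ISRE) and an SXY module with an X2 box and a Y box. RefSeq windows (GRCh38.p14, 250 bases before to 50 after a start) were found for 8 of the 9 members, 10 windows in all; HLA-E had none. The letters searched, on both strands and chosen with the sequences known, were the NF-kB consensus (kB-type), AANNGAAA (ISRE-type), TGACG (X2-type) and CCAAT (Y-type). The 4 windows shown are those of HLA-B, the classical heavy chain that differed less between the groups on values as deposited, and of HLA-C, B2M and ERAP1, the members with an unadjusted p under 0.05. They lie at chr6:31357130-31357429 (minus strand), chr6:31272043-31272342 (minus), chr15:44711267-44711566 (plus) and chr5:96807896-96808195 (minus). Capitals mark the matches, and overlapping matches run together.
HLA-B: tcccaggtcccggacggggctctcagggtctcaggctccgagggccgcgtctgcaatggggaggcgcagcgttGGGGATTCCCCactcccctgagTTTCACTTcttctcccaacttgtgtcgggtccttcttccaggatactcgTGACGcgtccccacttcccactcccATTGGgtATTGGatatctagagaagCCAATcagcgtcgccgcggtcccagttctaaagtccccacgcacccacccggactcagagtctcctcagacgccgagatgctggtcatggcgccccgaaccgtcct
HLA-C: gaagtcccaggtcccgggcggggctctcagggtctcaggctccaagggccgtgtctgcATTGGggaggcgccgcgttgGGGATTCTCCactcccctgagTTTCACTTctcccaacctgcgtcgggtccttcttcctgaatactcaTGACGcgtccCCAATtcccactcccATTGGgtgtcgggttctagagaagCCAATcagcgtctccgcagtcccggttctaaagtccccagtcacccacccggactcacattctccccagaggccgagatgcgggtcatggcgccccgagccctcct
B2M: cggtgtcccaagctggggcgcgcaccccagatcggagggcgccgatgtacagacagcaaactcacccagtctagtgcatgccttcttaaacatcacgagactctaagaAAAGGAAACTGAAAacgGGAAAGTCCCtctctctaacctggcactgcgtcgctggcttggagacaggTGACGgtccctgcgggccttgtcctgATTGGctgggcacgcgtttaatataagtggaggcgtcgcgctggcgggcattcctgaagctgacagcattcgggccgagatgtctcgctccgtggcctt
ERAP1: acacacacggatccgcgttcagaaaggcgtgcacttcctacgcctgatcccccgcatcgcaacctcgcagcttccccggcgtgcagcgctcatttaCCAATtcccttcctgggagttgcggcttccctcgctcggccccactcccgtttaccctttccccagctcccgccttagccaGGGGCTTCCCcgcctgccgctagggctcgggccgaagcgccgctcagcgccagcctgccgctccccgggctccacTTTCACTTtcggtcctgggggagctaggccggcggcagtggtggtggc

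The HLA-B, HLA-C and B2M windows each held all 4 motif types, which 0.0997% of 35116 RefSeq promoter windows did. The ISRE-type letters were in 9 of the members' 10 windows, with all 8 members having at least 1, against 22.8% of all windows. The kB-type letters were in 6 of the 10, against 11.3%. X2-type letters stood in 4 of the 10 windows (24.6% of all windows) and Y-type letters in 6 (34.6%). In HLA-B the ISRE-type match began at position -155 from the start and the X2-type match at -106. HLA-C had nearly the same spacing, at -151 and -105, and in B2M the X2-type match began at -75. The ERAP1 window shown had no X2-type match. These matches describe the letters and not binding, which was not measured. Of the 3 genes with all motif types B2M had higher and HLA-C lower values with W23-1006, as the values that follow show.

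The libraries held about 15161460 to 16497283 reads assigned to genes, if the smallest value above 0 in a library is taken as 1 read. Vimentin (VIM), CD44 and AXL, known to be high in this line, stood at 5260 to 22495 scaled reads in every library, and the oestrogen receptor gene ESR1 at 1.99 to 9.64. ESR1 and ERBB2 were 2 of 4 genes listed as low in this line, and the others had no row in the table used here. Unlike ESR1, ERBB2 was not near the floor, at 871 to 1052 scaled reads. Of 6 markers of leukocytes and endothelium 4 had a row in the table used here. Their summed level was 85.4 and 121 in the W23-1006 libraries and 88.7 and 89.8 in the DMSO libraries, most of it PECAM1 (73.5 and 104 with W23-1006, 74.7 and 78.4 with DMSO). ALKBH5 itself stood at 1281 and 1242 scaled reads with W23-1006 and at 1434 and 1443 with DMSO (a log2 fold change of -0.19 with an SE of 0.069; limma adjusted p = 0.167). In bulk RNA, fewer cells of a kind and less RNA per cell cannot be told apart.

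None of the 9 class I genes passed the threshold with W23-1006 (limma adjusted p from 0.0568 to 0.925). The background was 2.15% of the 22486 genes tested. At an unadjusted p under 0.05 stood 3 members, ERAP1 and B2M higher and HLA-C lower, and 16.7% of all genes did so. The weighted form of the test, limma-voom, called 2 members, B2M and ERAP1, where it called 5.29% of all genes. Of the members 5 had a positive log2 fold change, against 48.7% of all genes. Their median was 0.02 on the log2 scale, against -0.01 over all genes tested. The members' range ran from -0.70 for HLA-F to 0.32 for ERAP1, and without HLA-F, the gene with the fewest reads, the lowest was HLA-C at -0.23.

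**Figure D1:**
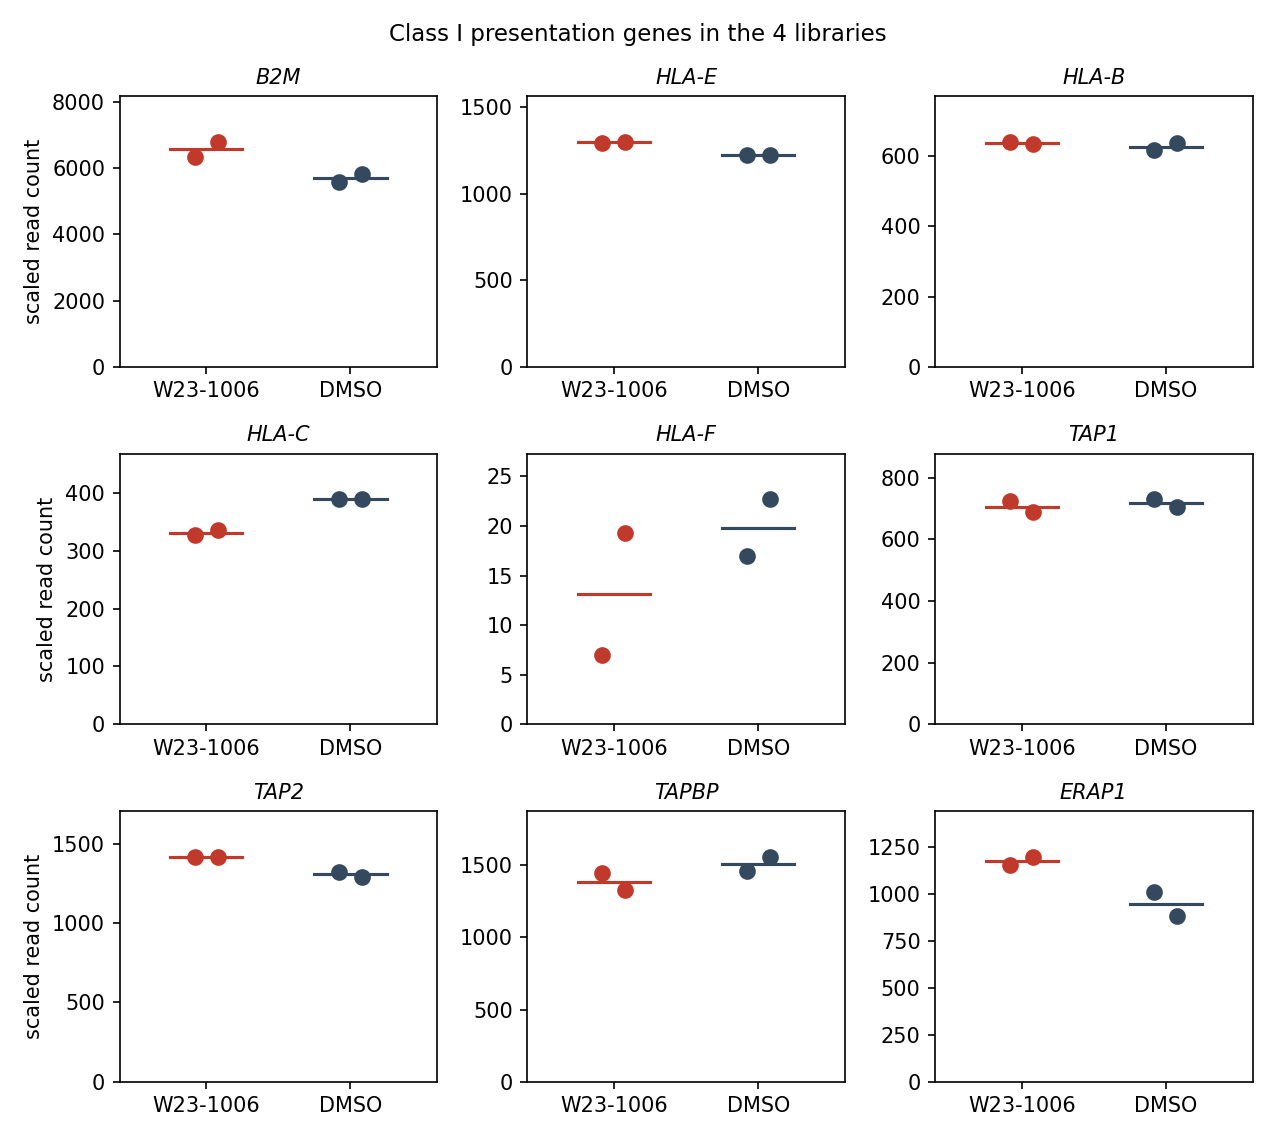
Scaled read count (vertical axis, from 0, its own scale for each gene) of each class I gene in the 2 W23-1006 libraries (red, left) and the 2 DMSO libraries (dark, right); points are libraries and lines are group means. The groups stand apart for B2M, HLA-E, TAP2 and ERAP1 (W23-1006 higher) and for HLA-C and TAPBP (W23-1006 lower), and overlap for HLA-B, HLA-F and TAP1.

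The light chain gene B2M (ENSG00000166710, GRCh38 chr15:44711487-44718877, plus strand) was the most abundant member. It had 6338 and 6805 scaled reads in the W23-1006 libraries, against 5590 and 5818 in the DMSO libraries. Both W23-1006 libraries were above both DMSO libraries. The means were 6571 ± 330 with W23-1006 and 5704 ± 162 with DMSO (SD, n = 2 each), a ratio of 1.15. The log2 fold change was 0.20 (SE 0.055, 95% interval 0.09 to 0.32) and missed the threshold (limma adjusted p = 0.065). In the authors' deposited table B2M was the 1 member past 0.05, at a log2 fold change of 0.20 and an adjusted p of 0.0157, where 2.42% of that table's genes were past it. That table lists 18892 genes at an adjusted p of 1, HLA-C and HLA-F among them, and of the other 7444 genes 8.57% were past it. After correction for GC content the log2 fold change was 0.09 (SE 0.050, limma adjusted p = 0.715).

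Of the heavy chain genes, HLA-C (ENSG00000204525, chr6:31268749-31272130, minus strand) differed the most apart from HLA-F. HLA-C presents peptides and is also the main class I ligand of killer-cell immunoglobulin-like receptors. It had 327 and 336 scaled reads with W23-1006, against 389 and 389 with DMSO. The groups did not overlap, the W23-1006 libraries being lower, and the log2 fold change was -0.23 (SE 0.11, 95% interval -0.46 to -0.0040; limma adjusted p = 0.29). With the GC content correction described further on, this direction turned, to 0.03. HLA-B (ENSG00000234745, chr6:31269491-31357188, minus strand), the other classical heavy chain here, had 641 and 634 scaled reads with W23-1006, against 616 and 638 with DMSO. Its groups overlapped, and the interval of its log2 fold change, -0.16 to 0.21 around 0.02, holds no difference as well as a small one in either direction (limma adjusted p = 0.925; 0.20 after GC content correction).

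HLA-E (ENSG00000204592, chr6:30489467-30494205, plus strand) presents leader peptides of other class I chains to the NKG2A receptor of natural killer cells. It had 1293 and 1300 scaled reads with W23-1006, against 1222 and 1224 with DMSO. Within each group the libraries differed by less than the groups did, and the log2 fold change was 0.08 (SE 0.070, 95% interval -0.06 to 0.23; limma adjusted p = 0.603; 0.19 after GC content correction). HLA-F (ENSG00000204642, chr6:29722775-29738528, plus strand), a chain that stays mostly inside resting cells, was barely detected. It had 6.96 and 19.3 scaled reads with W23-1006, against 16.9 and 22.7 with DMSO. The groups overlapped, and the log2 fold change of -0.70 had an interval from -1.84 to 0.45, so a difference was not detectable at this depth (SE 0.54, limma adjusted p = 0.564). Without W23-1006 replicate 1 it was -0.02 and without W23-1006 replicate 2 it was -1.37.

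The subunits of the peptide transporter differed little. TAP1 (ENSG00000168394, chr6:32845209-32853978, minus strand) had 724 and 688 scaled reads with W23-1006, against 730 and 706 with DMSO, and the groups overlapped (log2 fold change -0.03, 95% interval -0.20 to 0.15; limma adjusted p = 0.923; 0.13 after GC content correction). TAP2 (ENSG00000204267, chr6:32821833-32838780, minus strand) had 1418 and 1416 scaled reads with W23-1006, against 1323 and 1288 with DMSO. Both W23-1006 libraries were higher, by a log2 fold change of 0.12 (SE 0.069, 95% interval -0.03 to 0.26; limma adjusted p = 0.418). TAPBP (ENSG00000231925, chr6:33299694-33314387, minus strand), which encodes tapasin, had 1444 and 1331 scaled reads with W23-1006, against 1459 and 1560 with DMSO. The W23-1006 libraries were the lower ones by a narrow margin (log2 fold change -0.12, SE 0.073, 95% interval -0.28 to 0.03; limma adjusted p = 0.431; 0.04 after GC content correction). It was -0.064 without W23-1006 replicate 2 and -0.074 without DMSO replicate 2.

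ERAP1 (ENSG00000164307, chr5:96760810-96808100, minus strand), the aminopeptidase that trims peptides to the length the groove accepts, showed the greatest positive difference of the 9 on values as deposited. It had 1155 and 1198 scaled reads with W23-1006, against 1008 and 880 with DMSO. Both W23-1006 libraries were above both DMSO libraries, and the DMSO libraries lay further apart than the W23-1006 libraries. The means were 1176 ± 30.5 with W23-1006 and 944 ± 90.0 with DMSO (SD, n = 2 each), a ratio of 1.25. The log2 fold change was 0.32 (SE 0.082, 95% interval 0.14 to 0.50) and missed the threshold (limma adjusted p = 0.0568). It was 0.42 without DMSO replicate 1 and 0.22 without DMSO replicate 2. After GC content correction it was 0.19, just under HLA-B. In the authors' deposited table its adjusted p was 0.0512.

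With 6 of the 9 members the groups did not overlap, against 47.1% of all genes tested and 57.4% of the genes averaging 5 or more on the log2 scale, where 8 of the 9 members lie. W23-1006 was the higher group in 4 of them, as in 22.1% of all genes, and the lower in 2, as in 25% of all genes. Levels per kilobase were set in order with the gene length of the deposited table. B2M led with 1081 ± 54.3 scaled reads per kilobase in W23-1006 libraries and 938 ± 26.6 in DMSO libraries (SD, n = 2 each), followed by HLA-E at 436 ± 1.71 with W23-1006 and 411 ± 0.500 with DMSO. TAPBP (274 with W23-1006, 299 with DMSO), TAP2 (222 with W23-1006, 204 with DMSO) and HLA-B (209 with W23-1006, 205 with DMSO) came next, and TAP2 and HLA-B overlapped in the DMSO libraries. The next 3 genes stood in a different order in each group. In W23-1006 libraries ERAP1 (148) and TAP1 (147) overlapped and HLA-C (132) was below them, while in DMSO libraries HLA-C (155) was above TAP1 (149) and TAP1 above ERAP1 (119). HLA-F was last at 3.02 with W23-1006 and 4.57 with DMSO. This order rests on the length used. Per kilobase of the longest GENCODE 29 transcript, HLA-B (412 with W23-1006, 405 with DMSO) stood above TAPBP (369 with W23-1006, 402 with DMSO), the libraries of these genes overlapping in DMSO, and TAP1 (239 with W23-1006, 243 with DMSO) above HLA-C (176 with W23-1006, 207 with DMSO), while B2M and HLA-E still led and HLA-F was last.

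Differences among the members followed the GC content of their transcripts. ERAP1 and B2M had the lowest GC content, 39.7% and 40.6%, and the 2 highest log2 fold changes, whereas HLA-C had the highest, 62.7%, and the lowest log2 fold change but for HLA-F. TAP2 stood between them at 49.1%, HLA-E at 54.8%, TAP1 at 57.5%, TAPBP at 57.6%, HLA-F at 57.7% and HLA-B at 59.0%. Across the 9 genes, which share the same 4 libraries, Spearman's rho of log2 fold change with GC content was -0.87 (-0.93 across 8 genes without HLA-F), given as a description. Across the 12582 genes whose log2 values averaged 5 or more it was -0.66, so the relation was one of the whole table and not of these genes alone.

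**Figure D2:**
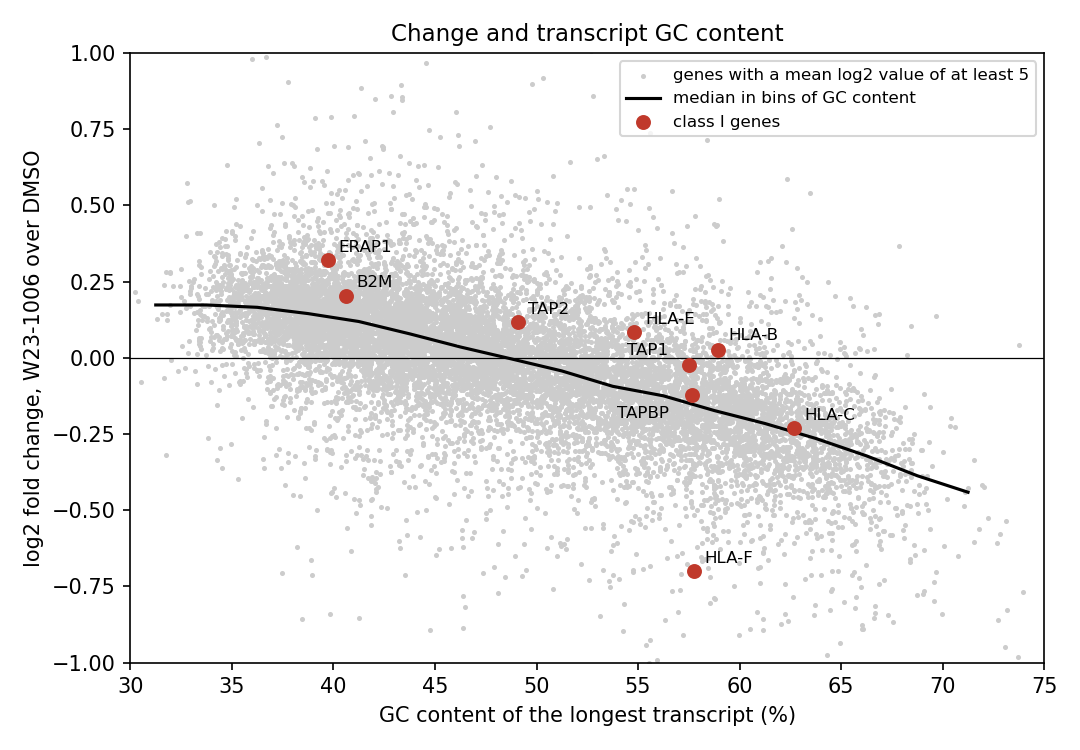
Log2 fold change of W23-1006 over DMSO (vertical axis) against GC content of the longest transcript in percent (horizontal axis). Grey points are genes whose log2 values averaged 5 or more, the line is their median in bins of GC content, and red points are the 9 class I genes, which run from ERAP1 at 39.7% and 0.32 to HLA-C at 62.7% and -0.23, with HLA-F apart at -0.70.

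When each library's own trend with GC content was removed, the order of the members changed. The part that the correction took out of the log2 fold change was 0.13 for ERAP1, 0.11 for B2M, -0.26 for HLA-C, -0.18 for HLA-B, -0.16 for TAP1, TAPBP and HLA-F and -0.11 for HLA-E. With it removed 8 of the 9 members were positive, against 50.8% of all genes, HLA-F being the exception. With the correction and any single library left out, 7 or 8 of the 9 were positive. The corrected log2 fold change was 0.20 for HLA-B (SE 0.085, 95% interval 0.03 to 0.38), 0.19 for HLA-E (SE 0.068) and 0.19 for ERAP1 (SE 0.078). TAP1 and TAP2 both stood at 0.13, B2M at 0.09, TAPBP at 0.04 and HLA-C at 0.03. None passed (limma adjusted p from 0.557 to 0.973). At an unadjusted p under 0.05 stood HLA-B, HLA-E and ERAP1, as 7.25% of all genes did, while 0.0934% of all genes passed the adjusted threshold. In 6 members both W23-1006 libraries then lay above both DMSO libraries, against 19.6% of all genes, and in none below (38.2% of all genes did not overlap in either direction). Of 12585 genes averaging 5 or more on the log2 scale, some without a GC content, 2805 then lay above and 2405 below. What part GC content plays in these differences was not tested.

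**Figure D3:**
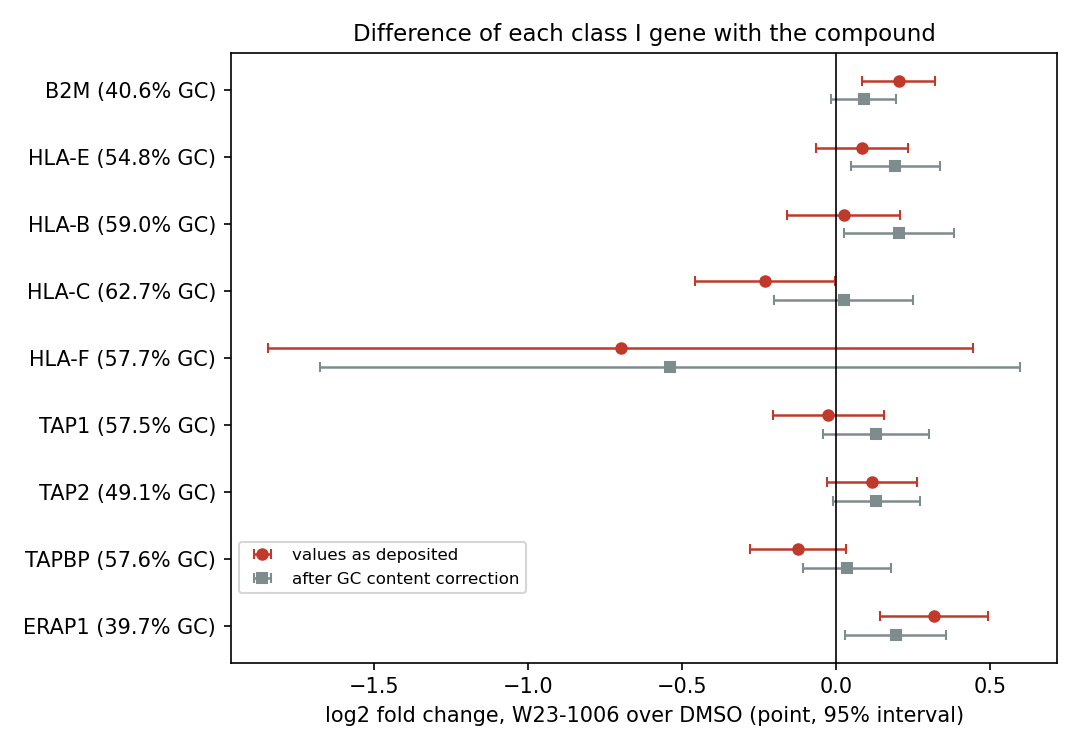
Log2 fold change of W23-1006 over DMSO with its 95% interval from limma (horizontal axis) for each class I gene, from values as deposited (red circles) and after GC content correction (grey squares); the GC content of each transcript stands beside its name. With the correction B2M and ERAP1 are nearer to 0 and HLA-B, HLA-C, HLA-E, HLA-F, TAP1 and TAPBP are shifted to the right.

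The proportion of light chain to heavy chain transcripts turned round with the same correction. Per kilobase, B2M stood to the sum of the 4 heavy chain genes HLA-B, HLA-C, HLA-E and HLA-F at 1.34 and 1.43 in the W23-1006 libraries, against 1.19 and 1.23 in the DMSO libraries. The summed heavy chains overlapped between the groups, at 777 and 783 scaled reads per kilobase with W23-1006 and 771 and 781 with DMSO. After GC content correction the ratio was 1.26 and 1.27 with W23-1006, against 1.30 and 1.35 with DMSO, and the summed heavy chains stood at 806 and 839 with W23-1006, against 732 and 738 with DMSO. The groups were apart on both scales, in opposite directions, so its direction depends on the correction. With transcript lengths, tried after seeing the data, the ratio was 2.42 and 2.57 with W23-1006, against 2.14 and 2.19 with DMSO, and after the correction 2.27 and 2.27 with W23-1006, against 2.35 and 2.43 with DMSO.

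Reads of some members could be shared with other genes, and how such reads were counted is not given in the sources used here. Of the windows of 100 bases along the longest GENCODE 29 transcript, 35.2% of those of TAP2, 31.8% of HLA-F, 12.7% of TAP1 and 12.2% of HLA-B were also found in a transcript of another gene. The share was 1.61% for ERAP1, 0.600% for HLA-E, 0.225% for HLA-C and 0 for B2M and TAPBP. With windows of 50 bases it was 6.88% for HLA-C, 6.68% for TAPBP, 5.76% for HLA-E, 3.43% for ERAP1 and still 0 for B2M. For TAP2, 2064 of 6390 exon bases were shared with AL669918.1 on the same strand. HLA-B as annotated reaches into HLA-C, with 35 exon bases in common. On the opposite strand HLA-B shares 542 of 3051 exon bases with the pseudogene AL671883.2. HLA-F shares 701 of 4342 with the pseudogene AL645939.1 and 535 with HLA-F-AS1, and TAP1 shares 456 of 4805 with PSMB8-AS1. ERAP1 shares 299 of 7945 exon bases with CAST on the opposite strand, and CAST had 4287 and 4081 scaled reads with W23-1006, against 4209 and 3977 with DMSO. Levels of HLA-B, HLA-F, TAP1 and TAP2 are therefore uncertain. The strand setting of the counting is not known, so the level of ERAP1 may be uncertain too.

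Of 9 partners of class I in the endoplasmic reticulum none passed in limma (5 positive, median log2 fold change 0.06; 2 at an unadjusted p under 0.05, where 16.7% of all genes stood, here and in the lists that follow). The chaperone calnexin, CANX, which folds new heavy chains, had 36999 and 37192 scaled reads with W23-1006, against 33566 and 32485 with DMSO (log2 fold change 0.17, SE 0.044, limma adjusted p = 0.0588, and 0.07 after GC content correction). It passed with limma-voom (adjusted p = 0.00021) and with equal library totals (limma adjusted p = 0.0308). The authors' deposited table has CANX past the threshold, at an adjusted p of 0.00356. Calreticulin, CALR, which bridges heavy chains to tapasin, had 10241 and 10542 with W23-1006, against 11355 and 11303 with DMSO (-0.12, SE 0.048, limma adjusted p = 0.19, and -0.03 after the correction), and passed with limma-voom (adjusted p = 0.0167). The groups stood apart for both chaperones, in opposite directions. ERAP2, the partner of ERAP1 in trimming, had 255 and 255 with W23-1006, against 224 and 205 with DMSO (0.25, SE 0.13, limma adjusted p = 0.362, and 0.13 after the correction).

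Of 10 genes of peptide supply 1 passed in limma, against 2.15% of all genes tested, and it fell. THOP1 encodes thimet oligopeptidase, a cytosolic enzyme that destroys peptides before they reach the transporter. It had 1492 and 1381 scaled reads with W23-1006, against 1740 and 1856 with DMSO, with no overlap. The log2 fold change was -0.32 (SE 0.071, 95% interval -0.48 to -0.17; limma adjusted p = 0.0339). Its transcript has a GC content of 63.1%, and after GC content correction the log2 fold change was -0.06 (limma adjusted p = 0.87). With any single library left out the log2 fold change ran from -0.38 to -0.27. In the authors' deposited table THOP1 was past the threshold, at an adjusted p of 0.0116. Tripeptidyl peptidase TPP2 (0.15) and nardilysin NRDC (0.10) did not pass (limma adjusted p = 0.252 and 0.397), and stood at 0.020 and 0.056 after GC content correction. The interferon-inducible proteasome subunits gave a log2 fold change of 0.09 for PSMB8, -0.28 for PSMB9, whose gene adjoins TAP1, and -0.83 for PSMB10, and none passed (limma adjusted p = 0.74, 0.479 and 0.447). After GC content correction they stood at 0.18, -0.30 and -0.63. PSMB10 was low, with 8.94 and 30.9 scaled reads with W23-1006, against 25.9 and 36.1 with DMSO, and its groups overlapped.

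Regulators of class I transcription showed no member past the threshold among 13 (5 positive, median log2 fold change -0.07; 2 at an unadjusted p under 0.05). The class I transactivator NLRC5 had 263 and 198 scaled reads with W23-1006, against 235 and 283 with DMSO, and IRF1, an interferon-induced activator, 304 and 191 with W23-1006, against 201 and 221 with DMSO. The groups overlapped for both genes. CREB1 and ATF1, which bind the X2 box, stood at 0.18 and 0.22 on the log2 scale (limma adjusted p = 0.231 and 0.29). After GC content correction they stood at 0.01 and 0.05. IRF2 stood at -0.15 (limma adjusted p = 0.538), and at -0.19 after the correction. These values moved with single libraries. CREB1 was at 0.097 without W23-1006 replicate 2 and IRF2 at -0.096 without DMSO replicate 2. ATF1 was at 0.37 without DMSO replicate 1, at 0.079 without DMSO replicate 2 and at 0.15 without W23-1006 replicate 2. Of 7 genes of interferon gamma signalling none passed (5 positive, 2 at an unadjusted p under 0.05). Their median log2 fold change was 0.13, and 0.04 after GC content correction. The kinase JAK1 had 2855 and 2648 scaled reads with W23-1006, against 2458 and 2496 with DMSO, with no overlap (log2 fold change 0.15, SE 0.062, limma adjusted p = 0.23). JAK1 was at 0.12 after GC content correction, and at 0.096 without W23-1006 replicate 1 on values as deposited. The phosphatase PTPN2, which dampens this signal, stood at 0.17 (limma adjusted p = 0.349), and at 0.04 after GC content correction.

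**Figure D4:**
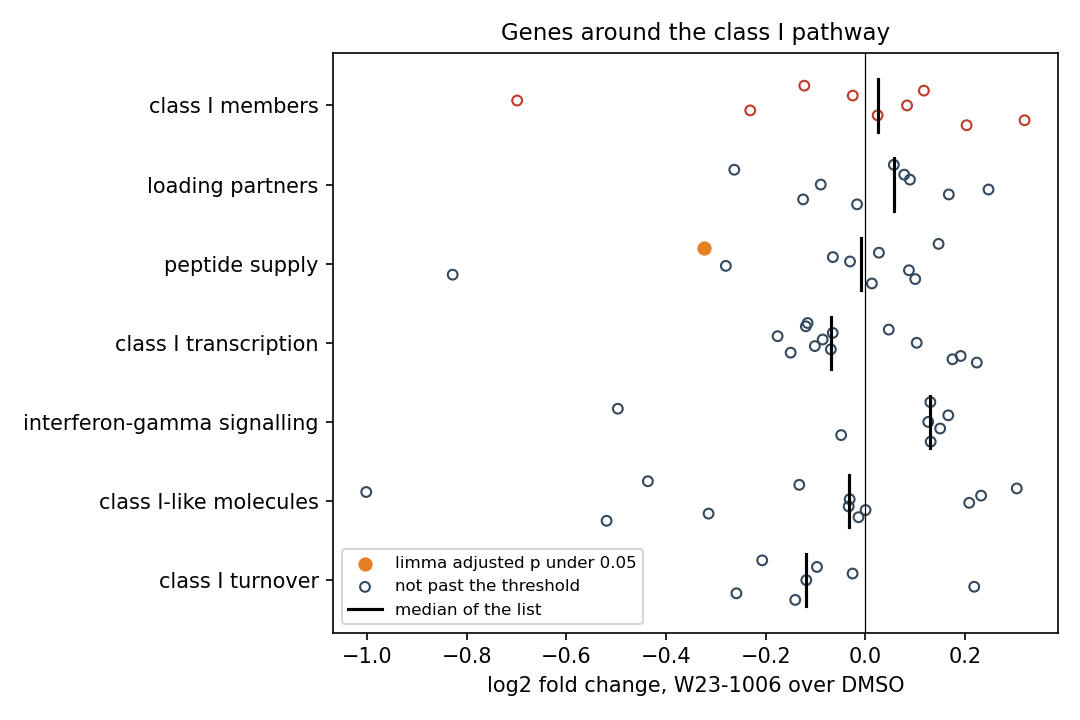
Log2 fold change of W23-1006 over DMSO (horizontal axis) for each tested gene of the class I members and of 6 lists around the pathway (vertical axis); filled points passed the limma threshold, open points did not, and bars are list medians. THOP1 in the peptide supply list, at -0.32, is the 1 filled point.

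Class I-like molecules, which include ligands of the activating NKG2D receptor, were represented by 12 tested genes, of which none passed (4 positive, median log2 fold change -0.03; 2 at an unadjusted p under 0.05). The NKG2D ligands RAET1G and ULBP3 had the smallest p. RAET1G had 18.9 and 41.5 scaled reads with W23-1006, against 52.8 and 61.9 with DMSO (-1.0, SE 0.36, limma adjusted p = 0.165). It was -0.45 without W23-1006 replicate 1 and -1.55 without W23-1006 replicate 2. ULBP3 had 182 and 139 with W23-1006, against 228 and 203 with DMSO (-0.44, SE 0.16, limma adjusted p = 0.174), and was at -0.24 without W23-1006 replicate 2. Both had lower values in the W23-1006 libraries with no overlap, and after GC content correction they stood at -0.88 and -0.32. RAET1E, another ligand of that receptor, had 100 and 95.5 with W23-1006, against 82.7 and 83.6 with DMSO, the W23-1006 libraries being the higher ones (0.23 before and after the correction, limma adjusted p = 0.622). HFE, a class I-like regulator of iron uptake, stood at -0.31 (limma adjusted p = 0.359) and at -0.40 after GC content correction. MICA and MICB stood at 0.00070 and -0.033, and at 0.11 and -0.0024 after the correction.

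Proteins that lower or remodel surface class I, 7 genes, had 1 positive member and none past the threshold (median log2 fold change -0.12; 1 at an unadjusted p under 0.05). The smallest p was that of WWP2, a ubiquitin ligase of a complex that sends class I to lysosomes, with 582 and 564 scaled reads with W23-1006, against 661 and 663 with DMSO (-0.21, SE 0.087, limma adjusted p = 0.24, and -0.05 after GC content correction). The membrane ubiquitin ligases MARCHF9 and MARCHF4, under older symbols in the table, stood at -0.26 and -0.14 (limma adjusted p = 0.32 and 0.484). After GC content correction MARCHF9 was at -0.08 and MARCHF4 turned to 0.018. Without DMSO replicate 1 MARCHF4 was at -0.061, and without DMSO replicate 2 at -0.22. These 7 genes had a median GC content of 53.7%, and after GC content correction 3 were positive and their median was -0.0046. Of 12 listed genes of MHC class II 7 had a row in the table used here, and the others could not be judged. These 7 genes were near the floor in every library. They summed to 35.8 and 61.7 scaled reads with W23-1006, against 42.9 and 54.7 with DMSO. The invariant chain CD74 was at 0 to 4.82.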

How the data were processed

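Poly-A RNA of 4 libraries was measured by RNA-seq. The submitters' processing notes name the build GRCh38 and 5 tools without their roles, which are DESeq2 (1.20.0), featureCounts (1.5.0-p3), HISAT2 (2.0.5), fastp and CASAVA; strand setting and filters stay unknown. The authors deposited 1 table with a signal per library. These are reads scaled per library, since every value (100%) divided by its column's smallest value came within 0.001 of a whole number. A stricter check, on the low values, accepted whole reads for only part of the columns, so the tests used the scaled values. The count test planned for recovered reads was not run. Beside them stand, per the file headers, a log2 fold change and a p-value from the authors. Its columns named Treatment and Control were taken as W23-1006 and DMSO.

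Genes with a mean of at least 1 were tested with limma 3.58.1 (R 4.3.3) on log2(value + 1) with a mean-variance trend, two-sided, treatment as the only term, and Benjamini-Hochberg adjustment at 0.05 over all 22486 genes. Fold changes are on this log2(value + 1) scale; the pseudocount draws those of low genes towards 0, while averaging log values can move them either way. With 2 libraries against 2 the smallest exact permutation p is 0.333, so no exact test of single genes is given. For the GC content correction, a loess curve (span 0.3) of log2 deviation on the GC content of the longest GENCODE 29 transcript was fitted to the 12582 genes averaging 5 or more on the log2 scale, then subtracted in each library. The fit was tested on simulated data whose planted changes were larger than that of any member, so the simulation does not speak to differences as small as these.

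Same-numbered libraries did not deviate together, so numbers were not taken to pair them. With the smallest value of each library taken as 1 read, replicate libraries differed by a chi-square of 4.08 (W23-1006) and 2.82 (DMSO) per gene. This was above the 1 of counting error, so none was merged. The chi-square rests on that reading of the smallest value, which the stricter check did not accept for every column. Members, gene lists and tests were chosen with earlier results of these data known. Named are all members and, from each other list, genes past the threshold and those with the smallest p, up to 3, except 1 that is not reported here; PSMB8, PSMB9, PSMB10, NLRC5, IRF1, RAET1E, MICA and MICB were added after their values were seen. Marker and class II genes are given as levels only. Gene coordinates come from the deposited table, and for 99.98% of its genes GENCODE 29 gave identical bounds. Alternatives were tried for the pseudocount, filter, scaling, trend, GC content, replicate block and each library.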

Additional observations from a re-analysis of the deposited data

How the results depend on the processing

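The count of class I members past the limma threshold was 0. Median-of-ratios scaling left the already scaled values nearly unchanged, with 484 genes called in both fits, so its count of 0 adds nothing. The count of members stayed 0 with the GC content correction. It was also 0 with a pseudocount of 0.1, no filter and no mean-variance trend, settings in which no gene of the table passed. In all of these settings 0 to 3 members stood at an unadjusted p under 0.05. Fits with any single library left out, with or without the correction, called no gene, so they say nothing particular about the members. It was 1 with a pseudocount of 5 and with equal library totals (ERAP1 in both), and 2 with a filter of 5 CPM in 2 libraries, limma-voom and the replicate block (B2M and ERAP1 in each). Over all alternatives the limma adjusted p ran from 0.00313 to 0.715 for B2M and from 0.00245 to 0.621 for ERAP1.

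The count over all genes was 484. It was 770 with a pseudocount of 5, 1475 with the CPM filter (11097 genes tested), 820 with equal totals, 1190 with limma-voom and 21 with the GC content correction. It was 0 with a pseudocount of 0.1, with no filter and without the trend (3515, 3568 and 1866 genes at an unadjusted p under 0.05). Without any single library it was 0 as well, with 1904 to 3112 genes at that unadjusted p. With the GC content correction besides, which was tried after seeing the data, it was 0 again (852 to 1390). Same-numbered libraries correlated at 0.044 in their deviations from group means, so no pairing was assumed. With 2 libraries per group this correlation cannot show whether they shared a batch, and the labels do not say. A replicate block gave 1731 calls, and 201 and no member with the GC content correction. CANX (limma adjusted p = 0.0016) and RAET1G (0.0438) also passed with the block alone.

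Directions turned with the GC content correction, with and without the replicate block, for HLA-C (0.025), TAP1 (0.13), TAPBP (0.035) and MARCHF4 (0.018). Of the 58 tested genes in the 6 lists around the pathway 12 turned, MARCHF4 among them, as did AXL (0.053). The share of all tested genes that turned was not counted, so these counts have no background to be read against. With single libraries left out TAP1 ran from -0.063 to 0.013 and HLA-B from -0.00017 to 0.050. The B2M to heavy chain ratio, W23-1006 minus DMSO, was 0.18 on values as deposited and -0.066 after the correction. THOP1 missed the threshold with a pseudocount of 0.1, no filter and no trend (limma adjusted p = 0.103, 0.235 and 0.578), settings in which no gene passed. The causes were not tested. The edgeR test was not run, since whole reads could be taken as recovered for only part of the columns, and HLA-F gave no value with the CPM filter. Depth limits HLA-F and the class II genes with a row, which had under 25 scaled reads in every library.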
